A study of Mus musculus with 9 samples.

Results

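The genes described are 7 transcription factors of the endoderm, Gata4, Gata6, Sox7, Sox17, Foxa1, Foxa2 and Hnf4a, together with Dab2, an endocytic adaptor protein. They were chosen by gene symbol: every probe set of the array whose platform annotation gave 1 symbol from this set was taken, which found 13 of the 12422 probe sets tested and 8 of 8251 genes. Gata6 and Dab2 had 3 probe sets each, Sox17 had 2, and the other genes had 1.

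RNA came from F9 cells, an established mouse embryonal carcinoma line that resembles the undifferentiated cells of the early embryo and turns into endoderm in culture. The cells were kept for 24 h in medium with the ethanol vehicle, with 0.5 µM retinoic acid (RA), the ligand of the nuclear retinoic acid receptors, or with 0.07 µM trichostatin A (TSA), an inhibitor of histone deacetylases. Each group had 3 oligonucleotide arrays, 9 in all, and all came from the same line. Since nothing in the labels tells separate cultures from repeats of 1 culture, each p-value reflects only how far these arrays scatter, and that scatter may be technical.

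GATA and SOX factors act at the start of extraembryonic endoderm formation: Gata6 and Gata4 are zinc finger proteins that switch on endoderm genes, and Sox7 and Sox17 are HMG box proteins of the same SOX subgroup. Foxa1 and Foxa2 are forkhead proteins that can bind closed chromatin, and Hnf4a is a nuclear receptor of the visceral endoderm and liver. Dab2 links receptors such as megalin to clathrin and helps place proteins on the apical side of endoderm cells.

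The deposited value is the ratio of a probe set's signal to its own mean over the 3 vehicle arrays, so that the vehicle group averages 1 in each probe set. Levels can therefore be compared between arrays for 1 probe set, but not between genes, and the brightness behind a ratio is not held in the values. For the same reason it could not be judged whether a marker is present or absent in untreated F9 cells. In bulk RNA, fewer cells of a type and less RNA per cell cannot be told apart. Changes were tested with limma on log2(ratio + 0.05), with Benjamini-Hochberg adjustment over the 12422 probe sets, and a probe set was called where the adjusted p was under 0.05. All changes below are on that log2 scale, which understates changes of low values.

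After 24 h of RA, 3 of the 13 probe sets rose and none fell: 1 each of Foxa1, Gata6 and Sox7. The share of all probe sets called higher was 0.934%. The remaining 10 probe sets, which hold all values of Gata4, Sox17, Foxa2, Hnf4a and Dab2 and the other Gata6 probe sets, did not pass. In 4 of the 13 the RA arrays all lay above the vehicle arrays, against 5.93% of all probe sets. The median change of the 13 was 0.25, beside -0.12 for all probe sets, and 11 of the 13 changes were above 0, beside 37.7% of all. After TSA none of the 13 was called, beside 3.48% of all probe sets. Against TSA 4 of the 13 were higher in RA, beside 1.7% of all.

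**Figure D1:**
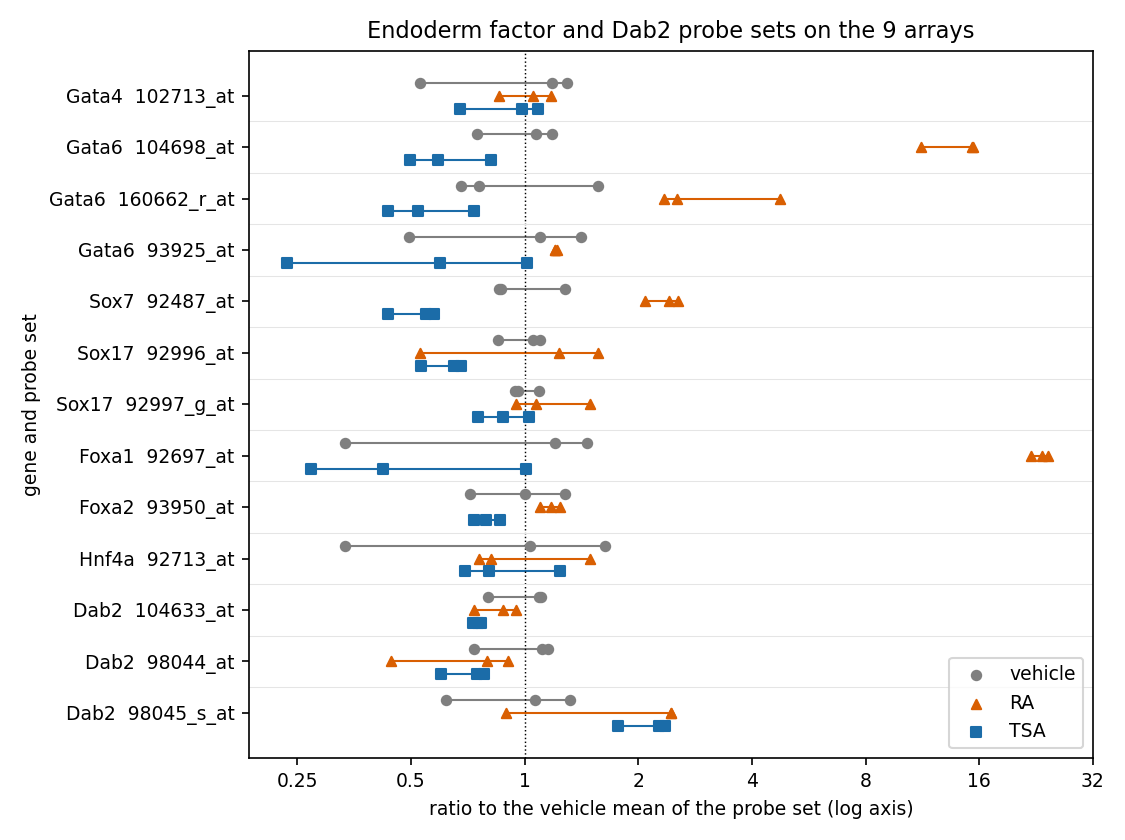
Ratio to the vehicle mean (log axis) for each of the 13 probe sets, 1 point per array: circles for vehicle, triangles for RA and squares for TSA, with a line from the lowest to the highest array of each group. The RA arrays of Foxa1 (22.0 to 24.4) and of Gata6 104698_at (11.2 to 15.4) stand above all others, while the groups overlap in the probe sets of Gata4 and Hnf4a.

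The GATA factors gave different values, with a rise in Gata6 and no call in Gata4. Gata4 had ratios of 0.527, 1.18 and 1.29 in the vehicle arrays, 0.855, 1.17 and 1.05 in RA, and 1.08, 0.674 and 0.985 in TSA. The 3 groups overlapped, and the vehicle arrays alone spanned the values of both treatments. The change in RA was 0.12, with a 95% interval of -0.67 to 0.91 (adjusted p = 0.932), so a rise of up to 0.91 or a smaller fall cannot be told from 0 with these arrays.

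Gata6 104698_at had ratios of 0.749, 1.18 and 1.07 in the vehicle arrays and 15.4, 15.4 and 11.2 in RA. All RA arrays were above all others, and the group means were 14.0 ± 2.41 (SD, n = 3) in RA and 1 ± 0.224 in vehicle. The rise was 3.75 (SE 0.262, 95% interval 3.15 to 4.35, adjusted p = 0.00062), which ranked 15 among the rises of all probe sets. In TSA the same probe set had 0.813, 0.498 and 0.591, a mean of 0.634 ± 0.162 (SD, n = 3) that did not pass the test (-0.62, adjusted p = 0.238).

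The other Gata6 probe sets gave smaller values in the same RNA. Gata6 160662_r_at had 0.757, 0.678 and 1.56 in vehicle, 2.53, 4.74 and 2.33 in RA, and 0.523, 0.435 and 0.736 in TSA. Its RA arrays were all above the vehicle arrays, yet the change of 1.65 (95% interval 0.76 to 2.54) had an adjusted p of 0.101 in limma. The probe set was called in 2 of 19 alternative settings. Of the 9 fits that leave out an array, it was called only without vehicle replicate 3 (2.01, adjusted p = 0.044). The highest adjusted p was 0.291, without vehicle replicate 2. By the array maker's naming, the ending _r_at marks a probe set for which some rules of probe selection were relaxed.

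Gata6 93925_at had ratios of 0.494, 1.10 and 1.41 in vehicle, 1.21, 1.20 and 1.22 in RA and 0.595, 0.235 and 1.02 in TSA. The RA arrays were close to one another and lay inside the vehicle range. Its change in RA was 0.38 (95% interval -0.77 to 1.53, adjusted p = 0.817). Which of the 3 probe sets follows the Gata6 transcript best cannot be read from ratios, and with the log2 values of all 3 averaged the gene rose by 1.93 (adjusted p = 0.0204).

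The probe sets were also set against each other array by array, as the difference of their log2 values. The rise of 104698_at exceeded that of 93925_at by 3.37 and that of 160662_r_at by 2.10, and that of 160662_r_at exceeded 93925_at by 1.27. In each of these the RA arrays were separate from the vehicle arrays, and the two-sided exact permutation test gave p = 0.1 (0.2 after adjustment over 14 such comparisons), the smallest p that 3 arrays against 3 allow. In TSA the 3 Gata6 probe sets differed by at most 0.118, with overlapping arrays.

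Sox7 and Sox17, closely related SOX factors, gave different values after RA. Sox7 had ratios of 0.865, 0.856 and 1.28 in vehicle, 2.41, 2.55 and 2.09 in RA, and 0.576, 0.435 and 0.547 in TSA. The groups did not overlap anywhere: RA was above vehicle and vehicle above TSA, with means of 2.35 ± 0.240, 1 ± 0.242 and 0.519 ± 0.0745 (SD, n = 3). The rise in RA was 1.21 (SE 0.220, 95% interval 0.71 to 1.71, adjusted p = 0.0392).

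That call sat close to the threshold. It was kept in 9 of 20 alternative settings, and of the 9 fits that leave out an array it was kept only without vehicle replicate 3 (adjusted p = 0.0208). Leaving out any of the other vehicle, RA or TSA arrays gave adjusted p from 0.066 to 0.161, while the change stayed between 1.12 and 1.39. In TSA the change of -0.87 (95% interval -1.37 to -0.37) had an adjusted p of 0.0747.

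Sox17, the factor that also marks definitive endoderm, was measured by 2 probe sets. Sox17 92996_at had 0.850, 1.05 and 1.10 in vehicle, 1.24, 0.527 and 1.57 in RA and 0.677, 0.651 and 0.533 in TSA. Sox17 92997_g_at had 0.944, 0.962 and 1.09 in vehicle, 1.07, 0.951 and 1.49 in RA and 0.875, 0.750 and 1.03 in TSA. RA replicate 2 was the lowest RA array in both, and vehicle and RA overlapped in both. The changes in RA were 0.03 (95% interval -0.79 to 0.84, adjusted p = 0.988) and 0.20 (-0.31 to 0.70, adjusted p = 0.778). An average rise as large as the 1.21 of Sox7 lies outside both intervals, but the difference between the genes was not tested. The change of 92996_at less that of 92997_g_at was -0.17 in RA (exact permutation p = 0.9) and -0.47 in TSA (exact permutation p = 0.1).

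Of the forkhead paralogs, Foxa1 had the largest change of the 13 probe sets in RA and Foxa2 the median one. Their windows of 250 bases before an annotated start are shown because Foxa1 passed the test after RA and Foxa2 did not. They are the reference sequences of RefSeq on GRCm38.p6, both from the minus strand and written 5′ to 3′ towards the start, chr12:57546112-57546361 for Foxa1 and chr2:148046970-148047219 for the outermost of 3 annotated Foxa2 starts. Capitals mark matches to any of 4 short motifs searched on both strands.
Foxa1: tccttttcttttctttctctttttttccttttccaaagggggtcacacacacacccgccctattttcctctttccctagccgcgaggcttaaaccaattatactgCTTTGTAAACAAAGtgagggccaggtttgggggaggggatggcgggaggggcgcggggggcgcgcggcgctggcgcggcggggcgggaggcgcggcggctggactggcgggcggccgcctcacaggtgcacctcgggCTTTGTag
Foxa2: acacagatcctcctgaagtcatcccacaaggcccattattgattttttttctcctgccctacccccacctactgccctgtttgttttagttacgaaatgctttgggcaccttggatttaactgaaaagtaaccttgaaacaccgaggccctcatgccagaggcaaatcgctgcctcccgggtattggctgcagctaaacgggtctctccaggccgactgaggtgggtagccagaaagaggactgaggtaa

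The motifs were AGGTCA, a half-site of nuclear receptors such as the RA receptor, GTAAACA of forkhead proteins, AGATAA of GATA factors and ACAAAG of SOX proteins. The Foxa1 window held GTAAACA on its own strand from base -141 to -135, counted back from the start. It held ACAAAG 3 times, on the opposite strand at -145 to -140 and -8 to -3 and on its own strand at -137 to -132. The matches at -145 to -140 and at -137 to -132 each overlap the forkhead match, and the 3 form the long run of capitals. Neither AGGTCA nor AGATAA was in the Foxa1 window, and none of the 4 was in the Foxa2 window shown. Only these exact letters were searched, so other spellings of such sites were not counted in either window. The window of the innermost Foxa2 start, which is not shown, held AGATAA and ACAAAG. Of 32851 mouse windows of the same length, 14.0% held AGGTCA, 3.17% GTAAACA, 9.99% AGATAA and 16.5% ACAAAG at least once. GTAAACA was thus the rarest of the 4, and windows with 3 matches of ACAAAG were not counted. A match is a description only. Windows were found for 4 of the 8 genes, Foxa1, Foxa2, Hnf4a and Dab2.

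Foxa1 had ratios of 1.21, 1.46 and 0.334 in vehicle, 22.0, 24.4 and 23.5 in RA and 1.01, 0.272 and 0.421 in TSA. All 3 RA arrays were above all other arrays and close to each other, while the vehicle arrays spread widely, with replicate 3 lowest. The means were 23.3 ± 1.22 (SD, n = 3) in RA, 1 ± 0.591 in vehicle and 0.568 ± 0.390 in TSA. The rise was 4.70 (SE 0.570, 95% interval 3.40 to 5.996, adjusted p = 0.00746), which ranked 6 among all probe sets. It passed in 19 of 20 alternative settings and did not pass with quantile normalization (3.66, adjusted p = 0.0934).

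Foxa2, which shares the forkhead domain and is known from node and definitive endoderm, had 0.716, 1.00 and 1.28 in vehicle, 1.10, 1.24 and 1.17 in RA and 0.732, 0.788 and 0.863 in TSA. The RA arrays lay within the vehicle range. The change in RA was 0.25 (SE 0.227, 95% interval -0.27 to 0.77, adjusted p = 0.715). Foxa3, the remaining member of the FOXA group, had a mean ratio of 0.441 ± 0.288 (SD, n = 3) in RA and did not pass either (-1.24, adjusted p = 0.294).

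Hnf4a, the nuclear receptor, had ratios of 0.334, 1.04 and 1.63 in vehicle, 0.816, 0.759 and 1.49 in RA and 0.805, 0.696 and 1.24 in TSA. The vehicle arrays spanned the values of both treatments. Its changes were 0.21 in RA (95% interval -0.99 to 1.41, adjusted p = 0.924) and 0.08 in TSA (-1.12 to 1.28, adjusted p = 0.956). These are the widest intervals in RA after Foxa1 among the 13.

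Dab2 did not pass in any of its 3 probe sets, and these did not move together. Dab2 104633_at had 0.802, 1.10 and 1.09 in vehicle, 0.736, 0.946 and 0.876 in RA and 0.728, 0.767 and 0.751 in TSA. Dab2 98044_at had 0.734, 1.11 and 1.16 in vehicle, 0.905, 0.796 and 0.443 in RA and 0.779, 0.600 and 0.747 in TSA. Dab2 98045_s_at had 1.06, 0.618 and 1.32 in vehicle, 2.44, 2.44 and 0.891 in RA and 1.77, 2.36 and 2.27 in TSA. The first pair lay below 1 in every RA and TSA array, while the last was above all vehicle arrays in TSA and in RA replicates 1 and 2. RA replicate 3 stood apart there and lay inside the vehicle range.

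The changes in RA were -0.21 (95% interval -0.66 to 0.23), -0.49 (-1.16 to 0.19) and 0.84 (-0.12 to 1.80), with adjusted p of 0.723, 0.553 and 0.46. Probe sets 98044_at and 98045_s_at were designed from 1 source sequence of Dab2, and the ending _s_at marks probes that can match more than 1 transcript. The log2 difference of 98044_at less 98045_s_at was lower than in vehicle by 1.33 in RA and by 1.56 in TSA, with no overlap of arrays, and both gave an exact permutation p of 0.1 (0.2 adjusted). For 104633_at less 98045_s_at it was lower by 1.49 in TSA (exact permutation p = 0.1) and by 1.05 in RA, where the arrays overlapped (exact permutation p = 0.3). The arrays of 104633_at less 98044_at overlapped in both treatments (differences of 0.28 and 0.07). Averaged over its probe sets, the Dab2 gene had a change of 0.05 in RA (adjusted p = 0.958) and 0.09 in TSA (adjusted p = 0.868). Without RA replicate 3 the change of 98045_s_at in RA was 1.31 (adjusted p = 0.16).

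**Figure D2:**
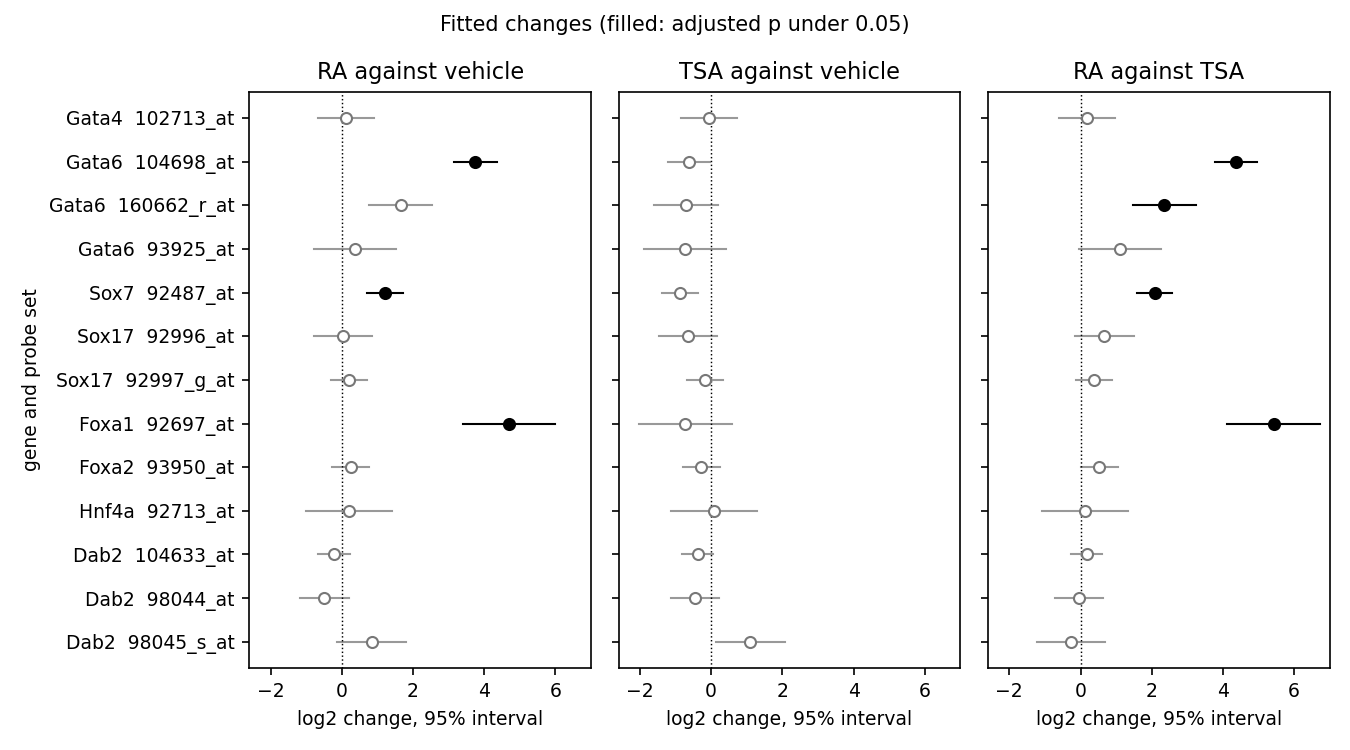
Log2 change of each of the 13 probe sets in RA against vehicle, TSA against vehicle and RA against TSA, with the 95% interval as a bar; filled points had an adjusted p under 0.05. In RA against vehicle Foxa1, Gata6 104698_at and Sox7 are filled, and in TSA against vehicle no point is.

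TSA, which changed 3.48% of all probe sets, gave no call among the 13 in limma. At an unadjusted p under 0.05 there were 3, beside 19.6% of all probe sets: Gata6 104698_at and Sox7 below vehicle and Dab2 98045_s_at above it (1.10, 95% interval 0.14 to 2.07, adjusted p = 0.199). With array weights 2 were called, Sox7 (adjusted p = 0.0284) and Dab2 98045_s_at (adjusted p = 0.0256), a setting that called 14.3% of all probe sets. It weighted the vehicle arrays by 0.559, 3.19 and 0.335, so the control rested mostly on replicate 2. That replicate was the lowest vehicle array in both probe sets. In 3 probe sets the TSA arrays all lay below the vehicle arrays, Sox7, Sox17 92996_at and Dab2 104633_at, and such separation was found in 17.1% of all probe sets. In 1, Dab2 98045_s_at, they all lay above, against 9.26% of all.

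The median change of the 13 in TSA was -0.45, beside -0.17 for all probe sets, and 2 of the 13 were above 0, beside 36.1% of all. Foxa1 had a change of -0.73 (95% interval -2.03 to 0.57, adjusted p = 0.53), Gata6 160662_r_at -0.71 (adjusted p = 0.364) and Gata6 93925_at -0.74 (adjusted p = 0.469). Changes of -0.65 and -0.18 for Sox17, -0.28 for Foxa2, -0.38 and -0.45 for Dab2 104633_at and 98044_at and -0.06 for Gata4 had adjusted p from 0.329 to 0.953. A p that missed the threshold does not show that these levels were equal in TSA and vehicle.

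The treatments were also compared directly, which does not use the vehicle arrays except for the estimate of spread. RA was higher than TSA by 5.42 in Foxa1 (SE 0.570, adjusted p = 0.00288), by 4.37 in Gata6 104698_at (SE 0.262, adjusted p = 0.000217), by 2.08 in Sox7 (SE 0.220, adjusted p = 0.00294) and by 2.36 in Gata6 160662_r_at (SE 0.389, adjusted p = 0.0153). These were the 4 calls among the 13, beside 1.7% of all probe sets called higher in RA. In these 4, in Gata6 93925_at and in Foxa2 the RA arrays all lay above the TSA arrays, 6 of 13 beside 13.8% of all probe sets. Foxa2 had a difference of 0.53 (95% interval 0.01 to 1.05) that did not pass after adjustment (adjusted p = 0.281). The call of Gata6 160662_r_at was lost without RA replicate 2 (adjusted p = 0.0536), TSA replicate 1 (0.0599) or TSA replicate 2 (0.0715), while Sox7 passed in 20 of 20 alternatives here.

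**Figure D3:**
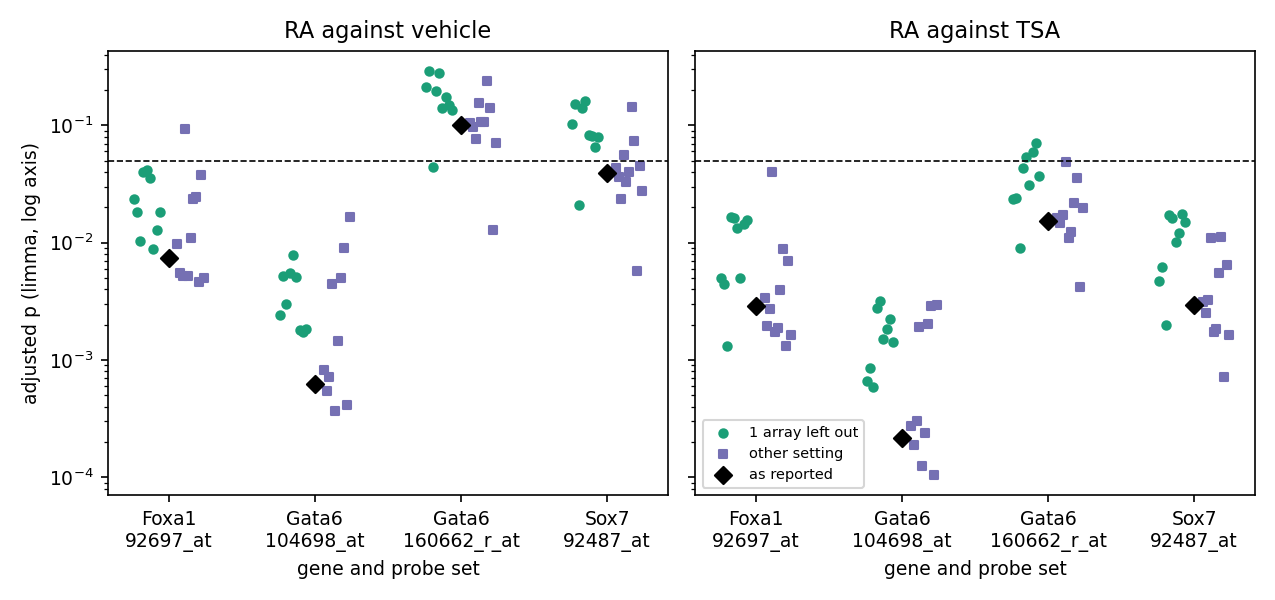
Adjusted p (log axis) of Foxa1, Gata6 104698_at, Gata6 160662_r_at and Sox7 in RA against vehicle and in RA against TSA: black diamonds as reported, green points with 1 array left out, purple points under other settings, and a dashed line at 0.05. Gata6 104698_at stays below the line in all 19 alternatives of both comparisons, and Sox7 crosses it in RA against vehicle.

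The vehicle arrays, which both treatments share as their control, were not alike. Replicate 1 was the lowest vehicle array in 9 of the 13 probe sets (34.8% of all probe sets), and replicate 3 was the highest in 10 of 13 (39% of all). The median SD of the log2 values of the 13 was 0.4 in vehicle, 0.263 in RA and 0.22 in TSA, beside 0.413, 0.311 and 0.26 over all probe sets. The signal of the 18S ribosomal RNA control probe sets also varied, with medians of 0.538, 0.073 and 2.40 in the vehicle arrays, 0.0723, 0.0515 and 0.961 in RA and 0.0336 to 0.0531 in TSA. Its part in the results was not tested, but without vehicle replicate 3 and RA replicate 3, where it was highest, Gata6 104698_at rose by 3.96 (adjusted p = 0.0167) and Foxa1 by 4.07 (adjusted p = 0.0376). Median ratios of the arrays ran from 0.821 to 1.02, and the values were used without further scaling.

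Genes whose ratios followed those of the called probe sets most closely over the 9 arrays were found by the root mean square difference of log2 values, as a description. For Foxa1 the nearest of 10832 probe sets of other genes was Gata6 104698_at (difference 0.79, Pearson r 0.967), then Foxq1, another forkhead gene (0.831, r 0.95), and Stra6, the cell surface receptor for retinol binding protein (0.977, r 0.929). For Gata6 104698_at they were Srgn (0.318, r 0.988), Stra6 (0.364, r 0.984) and Hoxb9 (0.41, r 0.98). Both lists thus hold genes with RA ratios of the same order, from 11.9 for Srgn to 16.4 for Foxq1. For Gata6 160662_r_at the nearest were Man1a (0.318, r 0.958), Sox7 (0.363, r 0.961) and Spink1 (0.378, r 0.953). For Sox7 they were Aard (0.3, r 0.976), Olfr155 (0.301, r 0.948) and Cyp11a1 (0.301, r 0.94). These arrays share the vehicle scaling, and the likeness is mostly that of 3 group levels.

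Other regulators of endoderm were measured by 32 probe sets of 24 genes from a list of 28. In RA 1 rose and 1 fell, with a median change of -0.16, where 0.934% of all probe sets rose and 0.427% fell. Zfpm1, a cofactor of GATA proteins, rose to a ratio of 2.76 ± 0.381 (SD, n = 3; 1.42, adjusted p = 0.0219). It also rose in TSA (2.37 ± 0.454; 1.20, adjusted p = 0.0274), where it was the only call of this list, beside 3.48% of all probe sets. Nr5a2, a nuclear receptor, fell in 103728_at (-1.25, adjusted p = 0.0311), while its other probe set gave -0.82 (adjusted p = 0.275). No probe set of Gata1, Gata2, Gata3 or Gata5 was called in either treatment. Against TSA, RA was lower in both Nr5a2 probe sets (-1.46 and -1.29, adjusted p = 0.0284 and 0.0159).

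Partners of Dab2 in endocytosis were measured by 26 probe sets of 16 genes from a list of 18. None was called in RA or in TSA, beside 1.36% and 3.48% of all probe sets. The medians were 0.04 and -0.07. Megalin (Lrp2), a receptor that Dab2 binds, had a change of 0.32 in RA (adjusted p = 0.69), and cubilin (Cubn) 0.18 and -0.26 in its 2 probe sets. Lrpap1, the chaperone of megalin, was higher in RA than in TSA in 100086_at (1.02, adjusted p = 0.0426), and its other probe set gave 0.88 (adjusted p = 0.0845).

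Products of endoderm cells, among them matrix and secreted proteins, were measured by 37 probe sets of 27 genes from a list of 29. In RA 3 rose and 1 fell, beside 0.934% and 0.427% of all probe sets, and the median change was 0.14. Bmp2 rose in 161118_r_at (10.6 ± 4.56, SD, n = 3; 3.32, adjusted p = 0.0055), but its other 2 probe sets gave 0.20 and 0.15. Plat, the tissue plasminogen activator, rose by 2.56 (adjusted p = 0.0435) and the collagen chaperone Serpinh1 by 1.18 (adjusted p = 0.0246). Fst, which binds activin, fell by 1.94 (adjusted p = 0.00746).

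None of the laminin or type IV collagen genes passed in RA. Lama1, a laminin chain, had a ratio of 2.26 ± 0.451 (SD, n = 3) in RA and did not pass (1.13, adjusted p = 0.0646). Col4a1, a chain of type IV collagen, had 2.69 ± 0.654 and did not pass (1.45, adjusted p = 0.0919), and Lamb1 gave -0.24 and -0.42. The visceral endoderm products Afp (0.10 and 0.23) and Ttr (-0.27) did not pass either.

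In TSA 3 of these probe sets rose and 1 fell, beside 2.21% and 1.27% of all, and the median change was -0.01. Plat rose by 3.60 (adjusted p = 0.00783), Krt19 by 3.83 in 92550_at (adjusted p = 0.0075) and Lama1 by 1.11 (adjusted p = 0.0397), while Fst fell by 1.70 (adjusted p = 0.00975). The change of Lama1 in RA, which did not pass, was of like size (1.13). Its difference between RA and TSA was 0.02 (limma adjusted p = 0.98). Krt19 102121_f_at had a change of -0.44. Against TSA, RA was higher in Bmp2 161118_r_at, Col4a1 and Serpinh1 (2.59, 1.59 and 1.37) and lower in Apoe 95356_at and Krt19 92550_at (-1.73 and -2.68). The other Apoe probe set gave 0.04.

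Some genes of the undifferentiated state fell in each treatment. Of 15 probe sets of 12 genes, 5 fell in RA and 4 in TSA, beside 0.427% and 1.27% of all probe sets, with medians of -0.83 and -0.84. In RA these were Tdgf1 (-2.37), Foxd3 (-1.99), Utf1 (-1.74), Zfp42 (-1.69) and Tcl1 (-1.53), with adjusted p from 0.0112 to 0.0392. In TSA they were Foxd3 (-3.53), Gdf3 (-2.21), Tdgf1 (-1.53) and Utf1 (-1.34), with adjusted p from 0.00236 to 0.0466. The value of Gdf3 is that of 92476_at, and its other probe set gave -0.35 (adjusted p = 0.644). Pou5f1 and Nanog, core factors of pluripotency, gave -0.84 and -0.61 in RA for the probe sets with the smaller adjusted p (0.158 and 0.156), which did not pass.

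Markers of other cell types were set beside these results. Of 20 probe sets of fibroblast genes none was called in RA, beside 1.36% of all. In TSA 1 probe set each of Thy1, Col1a1, Col5a1 and Cnn1 rose (3.00, 4.31, 1.78 and 3.18), where 2.21% of all rose. The other probe sets of Col1a1 and Col5a1 gave 0.59 and 0.09 in TSA (adjusted p = 0.455 and 0.847). Of 13 probe sets of 10 trophoblast genes none was called in RA, beside 1.36% of all. In TSA Tfap2c, Esx1 and Phlda2 rose (3.26, 2.21 and 1.74, limma adjusted p = 0.00853, 0.00577 and 0.0337), beside 2.21% of all. The median of this list in TSA was 0.001. Both Eomes probe sets and Elf5 had negative changes in TSA that did not pass (-0.91, -0.92 and -1.23). Of 14 probe sets of 10 genes of cardiac mesoderm, a tissue that also uses Gata4 and Gata6, none was called in either treatment. The shares of all probe sets called were 1.36% in RA and 3.48% in TSA.

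The mean log2 value over each list's probe sets was also taken array by array. For the fibroblast list it ran from -0.508 to 0.458 in vehicle, -0.144 to 0.0988 in RA and 0.471 to 0.717 in TSA. For the trophoblast list it ran from -0.192 to 0.213 in vehicle, -0.385 to -0.0262 in RA and 0.318 to 0.348 in TSA. For the cardiac list it ran from -0.304 to 0.252 in vehicle, -0.21 to 0.422 in RA and -0.306 to -0.169 in TSA. For the 13 probe sets of the endoderm factors and Dab2 it ran from -0.343 to 0.256 in vehicle, 0.915 to 1.01 in RA and -0.617 to -0.196 in TSA. Large changes of Foxa1 (4.70) and Gata6 104698_at (3.75) enter this RA mean, while the median change of the 13 was 0.25. Other endoderm regulators had means from -0.256 to 0.313 in vehicle, -0.0727 to 0.0241 in RA and -0.018 to 0.0331 in TSA. Endoderm products had -0.239 to 0.294, 0.124 to 0.268 and 0.262 to 0.311. In both of these lists each treatment overlapped vehicle. Among the vehicle arrays, replicate 3 was highest in each list given here, and the part of cell makeup in the results was not tested.

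**Figure D4:**
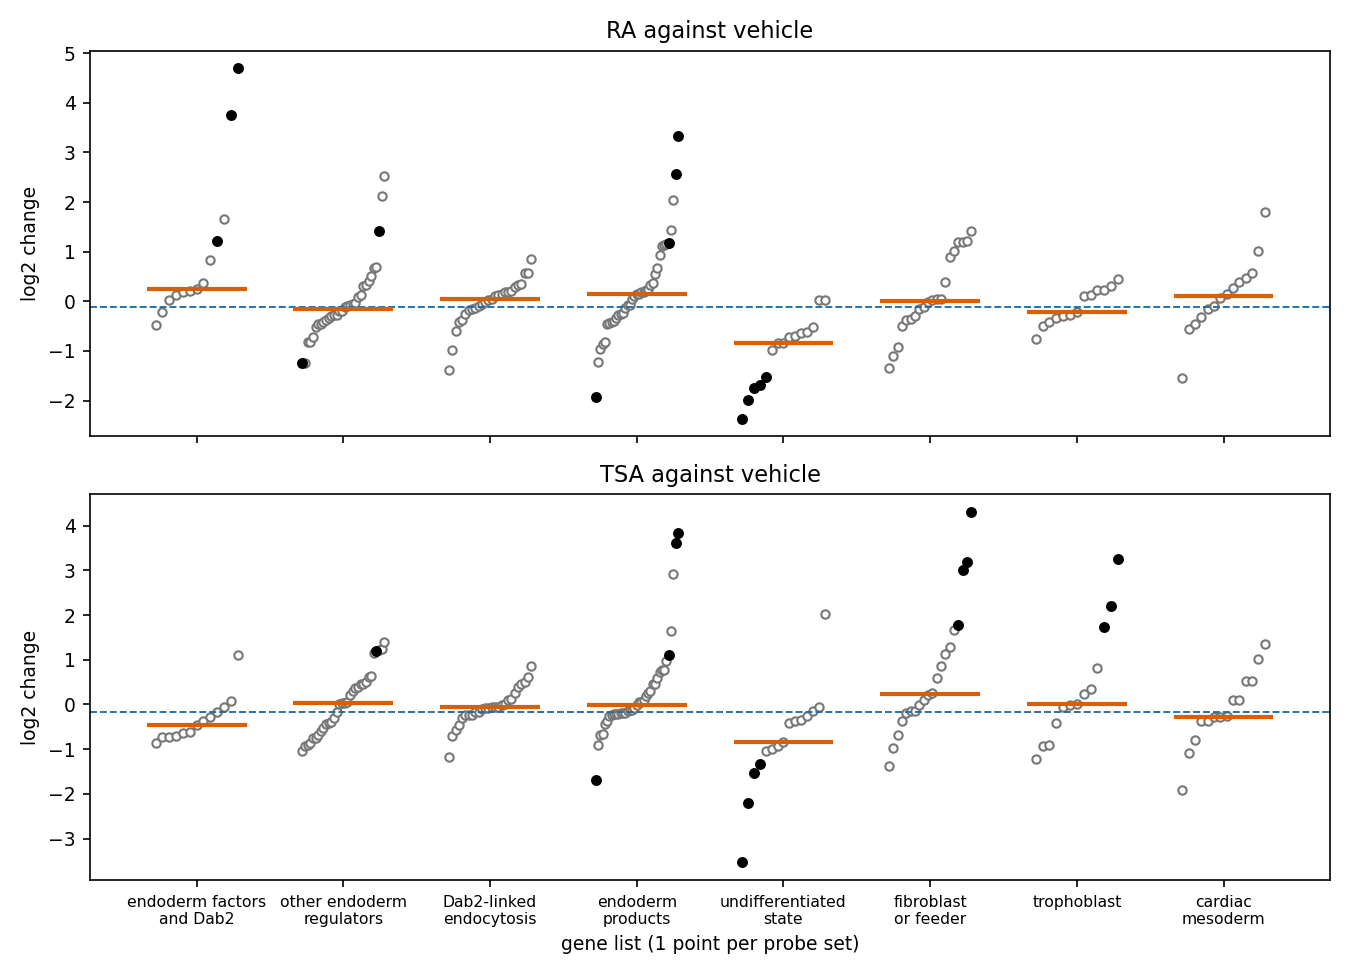
Log2 change of each probe set in RA and in TSA against vehicle, by gene list, with called probe sets filled, the list's median in orange and the median of all probe sets as a blue dashed line. The medians of the 13 endoderm factor and Dab2 probe sets are 0.25 in RA and -0.45 in TSA, and those of the undifferentiated list are -0.83 and -0.84.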

How the data were processed

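The deposited table holds, for each probe set and array, a linear ratio to the mean of the vehicle arrays, as the deposited values themselves show: the vehicle arrays averaged 1 within 1.9e-07 in each probe set. DNase-treated, column-purified total RNA was hybridised by the Affymetrix protocol at a core facility and read into GeneSpring, per the labels. How scanner signals became ratios is not given in the sources used here. Sample titles gave the groups and replicate numbers. Of 12488 probe sets, 66 controls were left out, and no filter on low values was used, so all 13 probe sets of the 8 genes were tested. The platform annotation gave 1 symbol for 10833 of the rest, several for 396 and none for 1193, and genes were named from the first kind alone.

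The ratios were tested as log2(ratio + 0.05) with limma 3.58.1 in R 4.3.3, in a single fit of the 9 arrays with 6 residual degrees of freedom and no covariate, and p-values were adjusted by Benjamini-Hochberg. The procedure was tested on simulated data with independent normal noise in each array. These lacked the vehicle scaling, the differences in spread between arrays and the links between arrays seen here, so the simulation does not cover them. The design had allowed for either ratios or intensities, and precision is limited by the number of arrays. The genes and lists were chosen with earlier results of these data known. All probe sets of the 8 genes are described. From the other lists, genes with a called probe set are named, up to the 5 smallest adjusted p, with the fixed names reported here, Lama1, Lamb1, Col4a1, Plat, Afp, Ttr, Lrp2, Cubn, Pou5f1, Nanog and Zfp42. Foxa3 and the GATA paralogs were added after their values were seen. Probe sets of 1 gene were compared by exact permutation of the arrays. The alternatives were pseudocounts of 0.01 and 0.1, centring, quantile normalization, a filter on the lowest 30% by mean and a variance trend. Others were fits on the arrays of the groups compared, a replicate block, array weights with a single weight per array, and averaging the probe sets of a gene. The last were leaving out vehicle replicate 3 and RA replicate 3 together (highest 18S signal), and leaving out each array.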

Additional observations from a re-analysis of the deposited data

How the results depend on the processing

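Of 753 changes of single probe sets of the 8 genes under the alternatives, 701 kept their direction and their side of the threshold, 15 lost a call, 4 gained one and 33 turned sign. None of those that turned sign was a change reported as called.

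Without each array in turn, the probe sets called ran from 54 to 209 in RA against vehicle, from 107 to 494 in TSA against vehicle and from 167 to 624 in RA against TSA. The changes in RA ran from -0.27 to 0.35 for Gata4 (lowest without vehicle replicate 1), from -0.040 to 0.67 for Gata6 93925_at, from -0.28 to 0.47 for Sox17 92996_at and from -0.40 to 0.67 for Hnf4a. Those in TSA ran from -0.44 to 0.17 for Gata4 and from -0.53 to 0.54 for Hnf4a. RA against TSA gave -0.018 to 0.31 for Gata4, -0.16 to 0.36 for Hnf4a, -0.22 to 0.25 for Dab2 98044_at and -0.50 to 0.20 for Dab2 98045_s_at.

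Among other settings, TSA against vehicle turned for Gata4 with centring (0.14), quantile normalization (0.029) and without both arrays of highest 18S signal (0.17), for Sox17 92997_g_at with centring (0.024) and quantile normalization (0.042), and for Hnf4a with array weights (-0.10). RA against vehicle turned with array weights for Gata4 (-0.045), Sox17 92996_at (-0.19) and Hnf4a (-0.035), and without both 18S arrays for Sox17 92996_at (-0.21). RA against TSA turned for Dab2 98044_at with array weights (0.028), and without both 18S arrays for Dab2 98044_at (0.25), Hnf4a (-0.16) and Dab2 98045_s_at (0.20). The cause was not tested.

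The probe sets called in RA against vehicle, TSA against vehicle and RA against TSA, reported as 169, 432 and 486, were 87, 108 and 152 with quantile normalization, which left 1 of the 13 called in RA, and 549, 1771 and 890 with array weights, which called 2 of the 13 in TSA. RA against vehicle gave 111 with the variance trend, 98 without both 18S arrays and 61 on the 6 arrays compared, where TSA gave 168. The reported split was 116 higher and 53 lower in RA and 274 and 158 in TSA. It was 148 and 37 in RA and 379 and 82 in TSA with centring, which moved the medians of all probe sets to 0.03 in both, and 74 and 13 and 84 and 24 with quantile normalization. The filter on low means left out Dab2 98044_at.

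Same-numbered arrays of different groups correlated from -0.0317 to 0.289 in their deviations from the group means, over 0.1 in 4 of 9 pairs. Differently numbered arrays correlated from -0.3 to 0.171. Replicate 3 arrays correlated at 0.289 (vehicle with RA), 0.237 (vehicle with TSA) and 0.19 (RA with TSA). Each of them correlated negatively with the differently numbered arrays of other groups. Replicate 2 pairs ran from -0.0317 to 0.0316. The reported fit did not pair the arrays, and whether same-numbered arrays shared a source was not tested. With the replicate block, 2 of the 13 probe sets were called in RA against vehicle, 0 in TSA against vehicle and 4 in RA against TSA, where all probe sets called were 141, 438 and 455, and Sox7 in RA had an adjusted p of 0.0736 in limma.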

Other observations

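The remaining promoter windows of these genes held few matches to the same 4 motifs. Of the other 2 annotated starts of Foxa2, the innermost had AGATAA from base -183 to -178 and ACAAAG on the opposite strand from -171 to -166, and the middle one had none. Hnf4a had AGATAA from base -52 to -47 before 1 of its 2 starts, and neither start of Dab2 had any of the 4 exact strings. Other spellings of such sites were not searched, so their absence is not shown. The forkhead motif GTAAACA was found in 1 of the 8 windows, that of Foxa1. These are letters in reference sequence, and no binding was measured in these samples.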
